A study of Mus musculus with 16 samples.

Results

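The comparison described here is the genotype by stage interaction: for each gene, the change from growth to differentiation in cells without the miR-206 family, minus the same change in control cells. It was computed on all 16 of the 16 samples of the study, and 30 of the 11832 genes tested passed. The cells were C2C12, an established mouse myoblast line that withdraws from the cell cycle and fuses into myotubes when serum is lowered, and the labels describe every sample as PAX7 negative. Controls were populations 1 and 2 of wild-type C2C12 cells. The triple knockout (tKO) cells were clones 1 and 2, which lack miR-206 together with miR-1a-1 and miR-1a-2. Growth medium (GM) samples were taken at about 80% confluence in 20% fetal bovine serum, and differentiated samples (DM3) after 3 days in 2% HS. At each stage each of these lines gave 2 libraries, labelled BR1 and BR2 and called culture 1 and culture 2 here, so each genotype had 4 libraries per stage. Genotype thus rests on 2 clones against 2 populations, and the p-values below measure the spread between libraries, which may in part be technical.

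MicroRNAs are short RNAs that guide Argonaute proteins to messenger RNAs, mostly through a match between the seed of the microRNA and the 3′ UTR of the messenger, and they lower the level or translation of the messenger. miR-1 and miR-206 carry the same seed, are made in muscle cells, and accumulate as myoblasts differentiate. Their loss is therefore a perturbation whose setting, the presence of the microRNA in normal cells, itself differs between GM and DM3. The interaction asks which genes responded differently to differentiation in the absence of the family.

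The seed and the sites it matches are shown here because they are set against the interaction further on. Capitals in the microRNA mark its seed (bases 2 to 8), and capitals in the sites mark the bases that match the site. The mature sequence is from RefSeq on GRCm38.p6, and the mRNA-strand sites are from the longest annotated 3′ UTR of each gene in GENCODE release M21 on GRCm38, each within a single exon of that 3′ UTR. An 8-base site is ACATTCCA, and the shorter sites are ACATTCC and CATTCCA, which are both contained in it. A gene was put in the class of its longest site, with ACATTCC ahead of CATTCCA, and the opposite strand was not searched. The 6 sites that follow the microRNA are all the 8-base sites of the called genes, and the last 4 are the CATTCCA sites of Slc25a1 and Notch3, genes with large positive interactions. Such sites of other called genes are not printed, among them those of Sema3d and Spry1, which had a lower tKO response. The Upf3a site lies past the end of that gene in the deposited table (position 13798538), whose gene model is shorter there than the GENCODE one.
miR-206-3p: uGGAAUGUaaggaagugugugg
H6pd, chr4:149980110-149980131, minus strand: acgtgccaccactcACATTCCA
Sri, chr5:8067575-8067596, plus strand: tctgaatatattcaACATTCCA
Sri, chr5:8069144-8069165, plus strand: aactggtgaaataaACATTCCA
Upf3a, chr8:13798686-13798707, plus strand: aaattcagaataaaACATTCCA
Ust, chr10:8205119-8205140, minus strand: tataacctttcagcACATTCCA
Kdsr, chr1:106724066-106724087, minus strand: atgacctgaagttcACATTCCA
Slc25a1, chr16:17925772-17925793, minus strand: gtatcccagctcctcCATTCCA
Slc25a1, chr16:17925357-17925378, minus strand: gacctggcttcaccgCATTCCA
Notch3, chr17:32121177-32121198, minus strand: ttcctcacttcactgCATTCCA
Notch3, chr17:32121035-32121056, minus strand: gatgtattttgtatgCATTCCA

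Values are FPKM (fragments per kilobase of gene, scaled to the depth of the library), and all differences and responses are differences of log2(FPKM + 1), tested with limma and adjusted over all 11832 genes. Depth was 22642563 to 34954079 fragments per GM library, 27714736 to 32102386 per library of differentiated tKO cells and 31834264 to 56585952 per library of differentiated controls. Summed over 8 skeletal muscle markers, the level was 57.5 to 135 FPKM in GM and 385 to 1243 FPKM in DM3. Of the other cell types, the 8 endothelial markers summed to 0.0368 to 0.916 FPKM over all libraries. The 8 smooth muscle markers, mostly Acta2, summed to 2070 to 6905 FPKM in GM and 1157 to 1768 FPKM in DM3. In differentiated controls and tKO cells, the 8 fibroblast markers summed to 70.2 to 236 and 72.3 to 175 FPKM. Of these, Osr1 (4.15 to 4.8 and 0.16 to 0.363 FPKM) and Pdgfra were lower in tKO cells without overlap, and Cd34 was higher. Adipocyte markers (8) summed to 6.05 to 10.2 and 4.17 to 7.73 FPKM. The 8 osteoblast markers summed to 216 to 516 FPKM in differentiated controls and 116 to 213 FPKM in differentiated tKO cells. Spp1 (osteopontin) made up most of this, at 207 to 499.9 and 109 to 204 FPKM. In the same 2 groups Runx2 was at 5.13 to 8.27 and 4.4 to 5.04 FPKM, and Phex at 3.92 to 7.78 and 1.9 to 6.4 FPKM. Bglap and Ibsp had at most 3 fragments in any library. Sp7 was at 0 to 0.155 FPKM, and Alpl and Dmp1 reached at most 0.229 and 0.118 FPKM. The part of these markers in the results was not tested. In tKO DM3 the cultures differed within each clone. The mean level of 35 sarcomere and muscle structure genes was 4.80, 3.88, 4.83 and 4.06 on the log2(FPKM + 1) scale (clone 1 cultures 1 and 2, then clone 2 cultures 1 and 2), against 4.19 to 4.69 in control DM3. Both culture 1 libraries of tKO DM3 lay above the control range and both culture 2 libraries below it. In such bulk RNA, fewer differentiated cells and less of a transcript per cell cannot be told apart.

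Both genotypes changed most genes with differentiation, and few responses passed the test of a difference. In control cells 7272 genes (61.5% of those tested) changed between GM and DM3, and in tKO cells 7208 (60.9%). The interaction passed in 30 genes (0.254%), of which 24 had a higher tKO response (0.203%) and 6 a lower one (0.0507%). The estimates were 0.63 to 2.6 in size, 16 were at least 1, and all 30 genes are annotated as protein coding. The median interaction over all genes was 0.03. In all 30 the tKO responses of the 4 line and culture pairs did not overlap the 4 control responses, which was also so for 997 of all genes (8.43%), and nothing is read from it because the genes were called on this contrast.

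**Figure D1:**
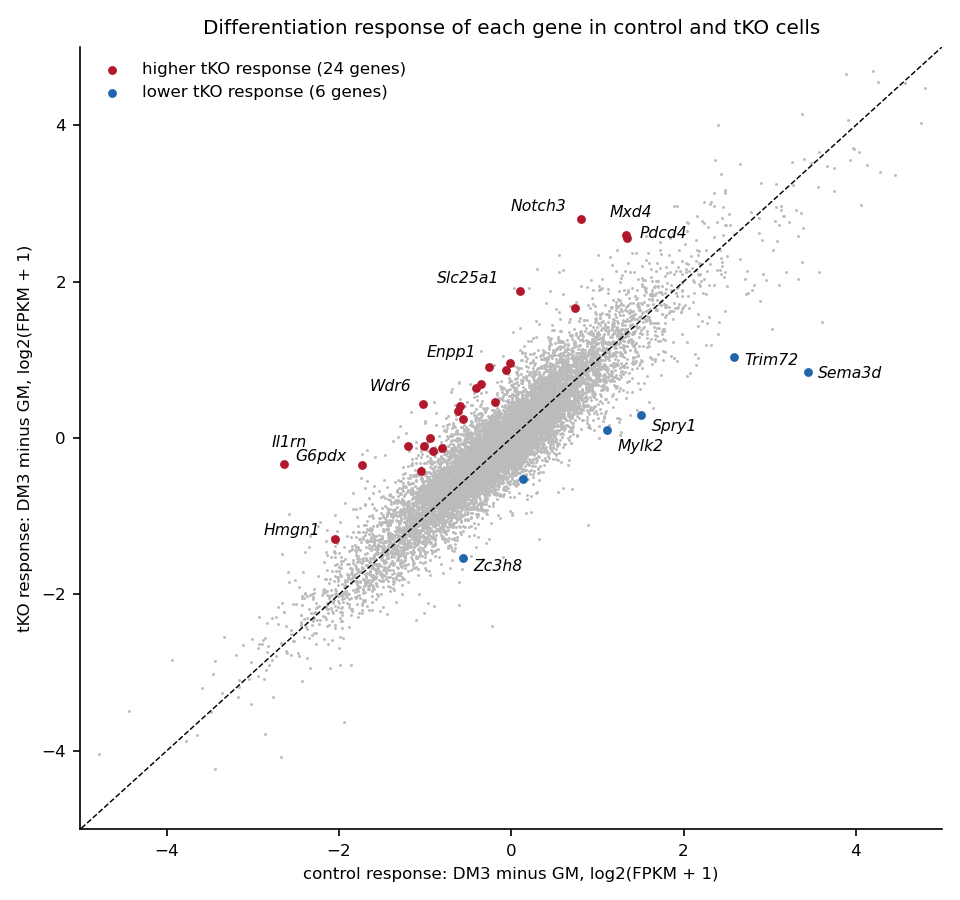
Each point is a gene, with its control response (DM3 minus GM, horizontal) and its tKO response (vertical) as differences of log2(FPKM + 1), and the dashed line marks equal responses. The 24 genes with a higher tKO response (red) lie above the line and the 6 with a lower one (blue) below it, while most genes follow the line.

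The called genes fell into classes by what each genotype did. Among the 24 genes with a higher tKO response, 7 fell in control cells and did not pass in tKO cells (Il1rn, Sri, Arpc1a, Sumf1, Fmnl3, Kdsr and G6pdx). Another 6 fell in control cells and rose in tKO cells (H6pd, Fn3krp, Eml3, Wdr6, Ago1 and Shisa5). In 5 genes control cells did not pass and tKO cells rose (Slc25a1, Enpp1, Mfsd9, Ust and Tfe3). The rest moved one way in both genotypes, with 4 rising more in tKO cells (Notch3, Mxd4, Adam19 and Pdcd4) and 2 falling less (Upf3a and Hmgn1). Among the 6 genes with a lower tKO response, 3 rose in both genotypes (Sema3d, Spry1 and Trim72), 1 rose in control cells and did not pass in tKO cells (Mylk2), 1 did not pass in control cells and fell in tKO cells (Emc6), and 1 fell in both (Zc3h8).

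More of the called genes differed between genotypes at the differentiated stage than in growth. Of the 30 genes, 24 also differed between tKO and control cells in DM3, where 400 of all genes did (3.38%). In GM 4 of them differed (Il1rn, Enpp1, Emc6 and Mxd4), against 244 of all genes (2.06%). In 23 genes only the DM3 test passed, and in Pdcd4, Tfe3 and Zc3h8 neither did. Of the 24 genes with a higher tKO response, 22 had a GM difference (tKO minus control) below 0, passing or not. The median of that difference over all genes was -0.01. A GM difference below 0 raises the interaction, so the call itself favoured this sign, and nothing is read from the count. Of the higher genes only Il1rn, Enpp1 and Mxd4 passed in GM. In others the GM difference was small, such as -0.02 in Shisa5 and -0.04 in Fn3krp. In Mxd4, Pdcd4 and Tfe3 the GM difference was -0.73, -0.63 and -0.36, larger in size than the DM3 difference of 0.52, 0.58 and 0.29. These counts use the same libraries as the interaction and are descriptions.

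**Figure D2:**
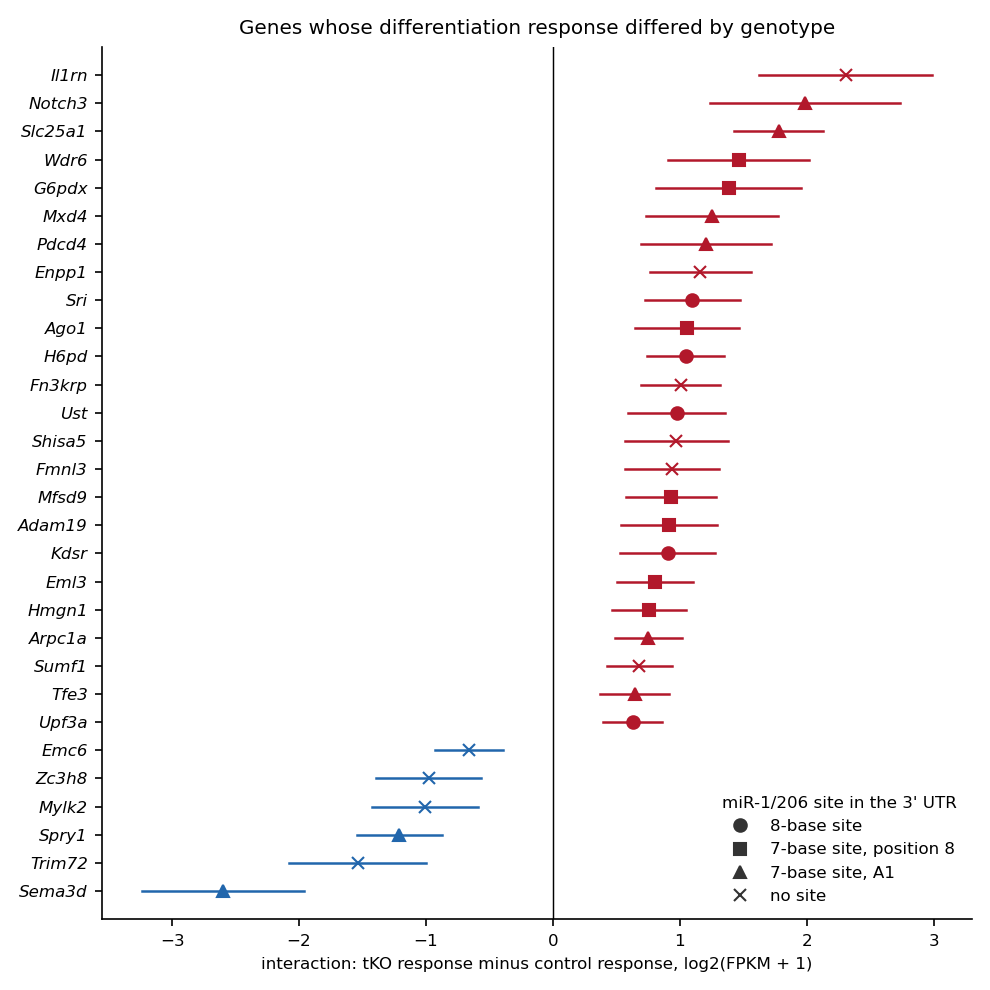
Interaction estimate of each of the 30 called genes on the log2(FPKM + 1) scale, with its 95% confidence interval as a line and the marker showing the longest miR-1 and miR-206 site in its 3′ UTR. Estimates run from -2.6 (Sema3d) to 2.31 (Il1rn), and the 5 genes with an 8-base site (circles) are all on the positive side.

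Genes are described by role, assigned after the calls were known, beginning with enzymes and carriers of metabolism. Levels in every library are given for the 12 genes with the smallest interaction p, in the order line 1 culture 1, line 1 culture 2, line 2 culture 1, line 2 culture 2, and for the others as mean ± SD (n = 4). Positions are those of the deposited table, whose build is mm10 per the submitters' processing notes. Slc25a1 (chromosome 16, 17925211 to 17928219) encodes the mitochondrial citrate carrier, which exports citrate for fatty acid and sterol synthesis. Its level was 39.6, 40.8, 39.1 and 34.4 FPKM in control GM and 41.6, 38.2, 45.1 and 40.5 FPKM in control DM3. In tKO cells it was 42, 32.5, 41.7 and 29.6 FPKM in GM and 122, 149, 143 and 129.5 FPKM in DM3. All 4 tKO DM3 libraries stood above every other library, and the other 3 groups overlapped. The tKO mean rose 3.73-fold while the control response did not pass (0.10, adjusted p = 0.463), and the interaction was 1.78 (95% CI 1.43 to 2.13, adjusted p = 9.84e-05).

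H6pd (chromosome 4, 149979475 to 150009023) encodes the hexose-6-phosphate dehydrogenase of the endoplasmic reticulum. It stood at 13.2, 13.2, 12.8 and 12.1 FPKM in control GM, and control DM3 libraries were at 10.4, 9.01, 10.1 and 9.71 FPKM. In tKO GM it was at 12.3, 9.78, 11.3 and 10.3 FPKM and in tKO DM3 at 18.6, 21.2, 16.5 and 16.7 FPKM. Control DM3 was below control GM without overlap, and tKO DM3 was above every other group. The interaction was 1.04 (adjusted p = 0.0045). G6pdx, its cytosolic counterpart at the entry of the pentose phosphate pathway, fell in control cells from 60.3 ± 11.2 to 17.3 ± 2.26 FPKM (SD, n = 4). In tKO cells G6pdx was at 48.9 ± 12.2 FPKM in GM and 38.2 ± 9.93 FPKM in DM3, a response that did not pass. Its interaction was 1.38 (adjusted p = 0.0468).

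Fn3krp (chromosome 11, 121421401 to 121431288) encodes a kinase of ketoamines on glycated proteins. Its control levels were 8.37, 8.96, 9.11 and 7.34 FPKM in GM and 5.09, 5.09, 5.17 and 5.62 FPKM in DM3. The tKO levels were 9.02, 8.13, 8.46 and 7.2 FPKM in GM and 10.2, 11.8, 10.3 and 12.7 FPKM in DM3. All control DM3 libraries lay below all GM libraries and all tKO DM3 libraries lay above them, with an interaction of 1.01 (adjusted p = 0.00704). Enpp1 (chromosome 10, 24637914 to 24712159) encodes the ectoenzyme that makes extracellular pyrophosphate from ATP. Control cells held 12.6, 10.4, 10.5 and 11.3 FPKM in GM and 9.68, 8.9, 8.25 and 10.1 FPKM in DM3. The tKO libraries held 2.84, 2.22, 3.3 and 2.76 FPKM in GM and 4.43, 7.21, 6.22 and 6.69 FPKM in DM3. Every tKO library was below every control library, and the tKO level rose 2.21-fold with differentiation, which narrowed the gap (interaction 1.16, adjusted p = 0.018).

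The remaining metabolic genes had smaller or less tightly measured interactions. Kdsr, a reductase of sphingolipid synthesis, fell in control cells from 8.51 ± 0.822 to 3.74 ± 0.564 FPKM and stood at 6.36 ± 1.04 and 5.8 ± 0.495 FPKM in tKO GM and DM3 (interaction 0.90, adjusted p = 0.0468). Sumf1, which activates sulfatases, fell in control cells from 26.5 ± 1.43 to 14.8 ± 1.11 FPKM, with 24.5 ± 1.18 and 22.4 ± 1.23 FPKM in tKO GM and DM3 (interaction 0.68, adjusted p = 0.0286). Ust, a uronyl sulfotransferase of glycosaminoglycans, was at 5.19 ± 0.61 and 5.14 ± 0.769 FPKM in control GM and DM3. In tKO cells Ust rose from 4.8 ± 0.611 to 10.3 ± 1.5 FPKM (interaction 0.97, adjusted p = 0.0357). Mfsd9, a member of the major facilitator superfamily, was at 1.06 ± 0.067 and 0.978 ± 0.105 FPKM in controls and rose in tKO cells from 0.964 ± 0.0352 to 2.63 ± 0.613 FPKM (interaction 0.93, adjusted p = 0.0286).

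**Figure D3:**
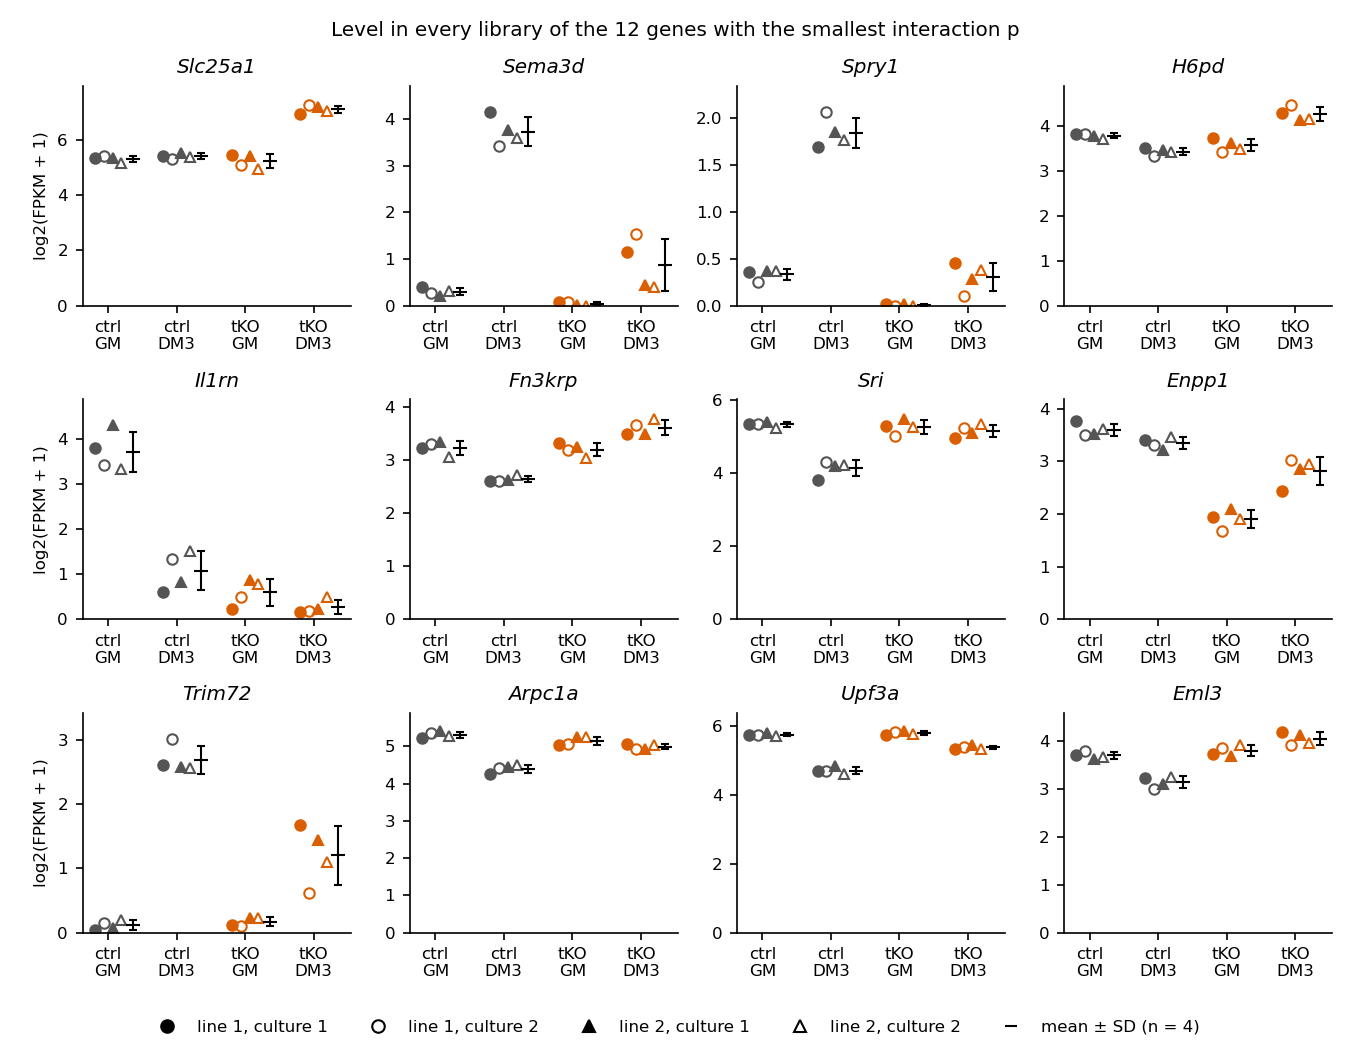
Level of the 12 genes with the smallest interaction p in each of the 16 libraries on the log2(FPKM + 1) scale, with control libraries in grey, tKO libraries in orange, symbols for line and culture, and mean ± SD (n = 4) beside each group. Slc25a1 shows 4 high tKO DM3 libraries over 3 lower groups, and Sema3d, Spry1 and Trim72 show high control DM3 libraries over a smaller tKO rise.

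Among genes of signalling between cells, Notch3 and Il1rn had the largest positive estimates and Sema3d the largest negative one. Il1rn (chromosome 2, 24336853 to 24351494) encodes the antagonist of the interleukin-1 receptor. It was at 12.8, 9.69, 18.6 and 9.0 FPKM in control GM and 0.508, 1.53, 0.775 and 1.86 FPKM in control DM3. In tKO cells it was at 0.164, 0.411, 0.812 and 0.722 FPKM in GM and 0.113, 0.126, 0.16 and 0.403 FPKM in DM3. Control GM stood far above the other 3 groups, and 2 control DM3 libraries lay within the tKO GM range. The positive interaction (2.31, adjusted p = 0.0050) is thus a fall in control cells from a level that tKO cells did not have in GM (GM difference -3.12, adjusted p = 3.87e-07). On fragment numbers with voom, which works with ratios, the Il1rn estimate was 2.18 and did not pass (adjusted p = 0.395). The 7 macrophage markers in the table summed to 12.8 to 16.0 FPKM in control GM and 13 to 19.7 FPKM in tKO GM. In DM3 their sum was 7.39 to 11.7 FPKM in controls, below control GM without overlap, and 8.44 to 24.0 FPKM in tKO cells. In controls Cd14 made up most of the sum, at 10.9 to 11.7 FPKM in GM and 5.33 to 7.83 FPKM in DM3. Control GM and DM3 overlapped for Cd68 (1.16 to 2.02 and 1.15 to 3.58 FPKM) and Lyz2 (0.422 to 2.42 and 0.67 to 1.65 FPKM). Csf1r was lower in control DM3 without overlap, at 0.0426 to 0.257 and 0.0267 to 0.039 FPKM. C1qa was at 0 to 0.58 FPKM in control GM and 0 in control DM3, and Itgam at 0 to 0.0503 and 0 to 0.0218 FPKM. Ptprc was at 0 to 0.0619 FPKM over all libraries. The part of these markers in the result was not tested.

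Notch3, a receptor of the Notch pathway that acts in muscle progenitors, rose in both genotypes. Control levels went from 11 ± 1.1 to 20.0 ± 2.73 FPKM, a 1.83-fold rise of the mean, and tKO levels from 6.32 ± 3.38 to 45.5 ± 3.93 FPKM, a 7.2-fold rise. The control responses of the 4 line and culture pairs were 0.49, 0.79, 0.86 and 1.10, and the tKO responses were 2.48, 3.83, 1.90 and 2.97, with both larger tKO values in culture 2. The interaction was 1.99 (95% CI 1.24 to 2.73, adjusted p = 0.0286). Adam19, a membrane-bound metalloprotease, rose in control cells from 7.55 ± 0.305 to 13.4 ± 2.18 FPKM and in tKO cells from 5.56 ± 0.291 to 19.9 ± 3.38 FPKM (interaction 0.91, adjusted p = 0.0468). Shisa5, an endoplasmic reticulum protein linked to apoptosis, fell in control cells from 46.1 ± 3.86 to 29.5 ± 1.61 FPKM and rose in tKO cells from 46.3 ± 11.9 to 57.9 ± 1.95 FPKM (interaction 0.97, adjusted p = 0.0468). The Shisa5 tKO responses were 0.76 and 0.53 in clone 1 but 0.16 and -0.06 in clone 2, so the rise was mostly in clone 1.

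Sema3d (chromosome 5, 12383166 to 12588943) encodes a secreted semaphorin, a guidance cue. It was at 0.316, 0.204, 0.159 and 0.245 FPKM in control GM and 16.9, 9.76, 12.7 and 11.1 FPKM in control DM3. In tKO GM it was at 0.0466, 0.0474, 0.00977 and 0 FPKM and in tKO DM3 at 1.23, 1.88, 0.354 and 0.31 FPKM. Control DM3 stood above all other libraries, and within tKO DM3 both clone 1 libraries were above both clone 2 libraries. The interaction was -2.60 (95% CI -3.24 to -1.96, adjusted p = 0.00107). The fragments behind the tKO GM values were 9, 7, 2 and 0. The means rose 54.5-fold in controls and 36.4-fold in tKO cells, and the estimate by voom was -0.26 (adjusted p = 0.965). The call for Sema3d was thus made on log2(FPKM + 1) and not on ratios.

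Spry1 (chromosome 3, 37639947 to 37644598) encodes Sprouty 1, an inhibitor of receptor tyrosine kinase signalling. It was at 0.279, 0.189, 0.289 and 0.288 FPKM in control GM and 2.22, 3.19, 2.62 and 2.39 FPKM in control DM3. In tKO GM it was at 0.0122, 0, 0.0115 and 0 FPKM and in tKO DM3 at 0.371, 0.0752, 0.221 and 0.301 FPKM. Control DM3 was above every other library, and tKO DM3 overlapped control GM. The interaction was -1.21 (adjusted p = 0.00343). In tKO GM the fragments were 1, 0, 1 and 0, at or under the floor of 3, so no tKO fold is given. By voom the sign turned, to 1.01 (adjusted p = 0.679), and with so few fragments no direction of the ratio is read from it.

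The muscle genes Trim72 and Mylk2 both had a lower tKO response. Trim72 (chromosome 7, 128003989 to 128011393) encodes MG53, a muscle protein of membrane repair. It was at 0.0231, 0.114, 0.048 and 0.149 FPKM in control GM and 5.11, 7.12, 5.01 and 4.91 FPKM in control DM3. In tKO GM it was at 0.0819, 0.0715, 0.168 and 0.171 FPKM and in tKO DM3 at 2.19, 0.534, 1.71 and 1.14 FPKM. Every tKO DM3 library was below every control DM3 library, and the GM groups overlapped. The interaction was -1.54 (adjusted p = 0.0193), and the means rose 66.2-fold in control and 11.3-fold in tKO cells from GM values of 2 to 13 fragments. Mylk2, the myosin light chain kinase of skeletal muscle, rose in control cells from 0.551 ± 0.289 to 2.31 ± 0.168 FPKM. In tKO cells Mylk2 was at 0.404 ± 0.112 FPKM in GM and 0.513 ± 0.23 FPKM in DM3 (interaction -1.01, adjusted p = 0.0468). By voom neither passed (adjusted p = 0.216 for Trim72 and 0.149 for Mylk2), with the same sign.

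Sri (chromosome 5, 8046078 to 8069379) encodes sorcin, a calcium-binding protein that acts on the ryanodine receptor. It was at 39.9, 40.1, 41.2 and 36.6 FPKM in control GM and 13.1, 18.9, 17.2 and 17.9 FPKM in control DM3. The tKO levels were 38.1, 31.4, 44 and 37.4 FPKM in GM and 30.2, 37.1, 33.3 and 39.6 FPKM in DM3. Control DM3 lay below all other libraries, and the tKO stages overlapped. The interaction was 1.10 (adjusted p = 0.018).

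Cytoskeletal genes shared the pattern of Sri, with a fall in control cells and either a rise or a response that did not pass in tKO cells. Arpc1a (chromosome 5, 145083830 to 145108761) encodes a subunit of the Arp2/3 complex, which branches actin filaments. It was at 36, 39.9, 41.2 and 38 FPKM in control GM and 18, 20.3, 20.9 and 21.5 FPKM in control DM3. In tKO GM it was at 32.1, 32.1, 37.1 and 36.7 FPKM and in tKO DM3 at 32.2, 29.4, 29.7 and 31.5 FPKM. Control DM3 was below every other library (interaction 0.75, adjusted p = 0.0211). Fmnl3, a formin that elongates actin filaments, fell in control cells from 40.1 ± 1.76 to 20.5 ± 1.84 FPKM. In tKO cells Fmnl3 was at 29 ± 3.8 FPKM in GM and 29.1 ± 5.38 FPKM in DM3 (interaction 0.94, adjusted p = 0.0374). Its tKO responses were 0.38, 0.25, -0.52 and -0.13, above 0 in clone 1 and below 0 in clone 2. Eml3 (chromosome 19, 8929694 to 8941563) encodes a microtubule-associated protein. Control levels of Eml3 were 12.1, 13, 11.5 and 11.7 FPKM in GM and 8.46, 7.04, 7.58 and 8.5 FPKM in DM3. Its tKO levels were 12.4, 13.6, 11.9 and 14.2 FPKM in GM and 17.3, 14.1, 16.6 and 14.5 FPKM in DM3. Control DM3 lay below both GM groups, and tKO DM3 overlapped tKO GM in part (interaction 0.80, adjusted p = 0.0286).

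Genes that act on RNA, chromatin and transcription made up much of the rest. Upf3a (chromosome 8, 13785615 to 13798538) encodes a factor of nonsense-mediated mRNA decay. It was at 52.9, 52.5, 55.1 and 51.9 FPKM in control GM and 24.9, 25.1, 27.7 and 23.5 FPKM in control DM3. In tKO GM it was at 52.3, 55.7, 56.8 and 54.3 FPKM and in tKO DM3 at 39.3, 41.5, 42.7 and 39.8 FPKM. The GM groups overlapped, and in DM3 all tKO libraries were above all control libraries. The responses were tight across pairs, at -1.06, -1.04, -0.96 and -1.11 in controls and -0.40, -0.41, -0.40 and -0.44 in tKO cells, and the interaction was 0.63 (adjusted p = 0.0286), the smallest in size among the called genes. Ago1, an Argonaute protein that binds microRNAs, fell in control cells from 8.0 ± 0.873 to 5.76 ± 0.695 FPKM and rose in tKO cells from 5.34 ± 0.775 to 8.95 ± 1.84 FPKM (interaction 1.06, adjusted p = 0.0306). Wdr6, a WD-repeat cofactor of tRNA methylation, fell in control cells from 34.3 ± 2.98 to 16.5 ± 2.93 FPKM and rose in tKO cells from 21.7 ± 5.72 to 29.7 ± 7.6 FPKM (interaction 1.46, adjusted p = 0.0286). Its tKO responses were 0.10, 1.26, -0.29 and 0.70, larger in culture 2 of both clones.

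Hmgn1, a nucleosome-binding protein, fell in both genotypes, from 192 ± 15.3 to 45.6 ± 4.38 FPKM in controls and from 175 ± 14.1 to 70.8 ± 3.56 FPKM in tKO cells (interaction 0.76, adjusted p = 0.0306). Mxd4, a repressor that competes with MYC for MAX, rose from 18.1 ± 3.05 to 47.5 ± 9.07 FPKM in controls and from 10.7 ± 2.86 to 68 ± 5.89 FPKM in tKO cells (interaction 1.25, adjusted p = 0.0468). Pdcd4, an inhibitor of translation initiation, rose from 3.93 ± 0.597 to 11.7 ± 2.91 FPKM in controls and from 2.18 ± 0.229 to 18 ± 4.5 FPKM in tKO cells (interaction 1.21, adjusted p = 0.0468). Tfe3, a transcription factor of lysosomal genes, was at 11.6 ± 0.619 and 10.1 ± 0.601 FPKM in control GM and DM3 and rose in tKO cells from 8.88 ± 0.624 to 12.6 ± 0.926 FPKM (interaction 0.64, adjusted p = 0.0468). Zc3h8, a zinc finger protein, fell from 3.24 ± 0.633 to 1.87 ± 0.33 FPKM in controls and from 5.07 ± 0.378 to 1.11 ± 0.288 FPKM in tKO cells (interaction -0.98, adjusted p = 0.0468). With the line as a replicate block, 3 of these genes missed the threshold, Tfe3 (adjusted p = 0.0526), Pdcd4 (0.0563) and Zc3h8 (0.0543). Emc6, a subunit of a membrane insertion complex of the endoplasmic reticulum, was at 22.9 ± 1.27 and 25.3 ± 1.53 FPKM in control GM and DM3 and fell in tKO cells from 34.4 ± 1.92 to 23.7 ± 2.2 FPKM (interaction -0.66, adjusted p = 0.0468).

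The 5 genes just outside the threshold were Cystm1 (interaction -0.94), Gm16276 (1.32), Tpm1 (-0.95) and the cation channel gene Trpm4 (0.81), each at an adjusted p of 0.0509, and Slc29a3 (1.52, adjusted p = 0.0519). Just inside it, the adjusted p of Emc6, Mylk2, Kdsr, G6pdx, Mxd4, Adam19, Shisa5, Pdcd4, Tfe3 and Zc3h8 was 0.0468. Tpm1, which encodes a tropomyosin of muscle and non-muscle filaments, was at 379 ± 32.8 and 230.1 ± 8.95 FPKM in control GM and DM3 and at 676 ± 151 and 209 ± 13.3 FPKM in tKO GM and DM3. Slc29a3, a nucleoside transporter with 8-base sites in its 3′ UTR, was at 9.86 ± 0.953 and 2.44 ± 0.558 FPKM in controls and 8.15 ± 2.01 and 7.47 ± 2.7 FPKM in tKO cells.

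**Figure D4:**
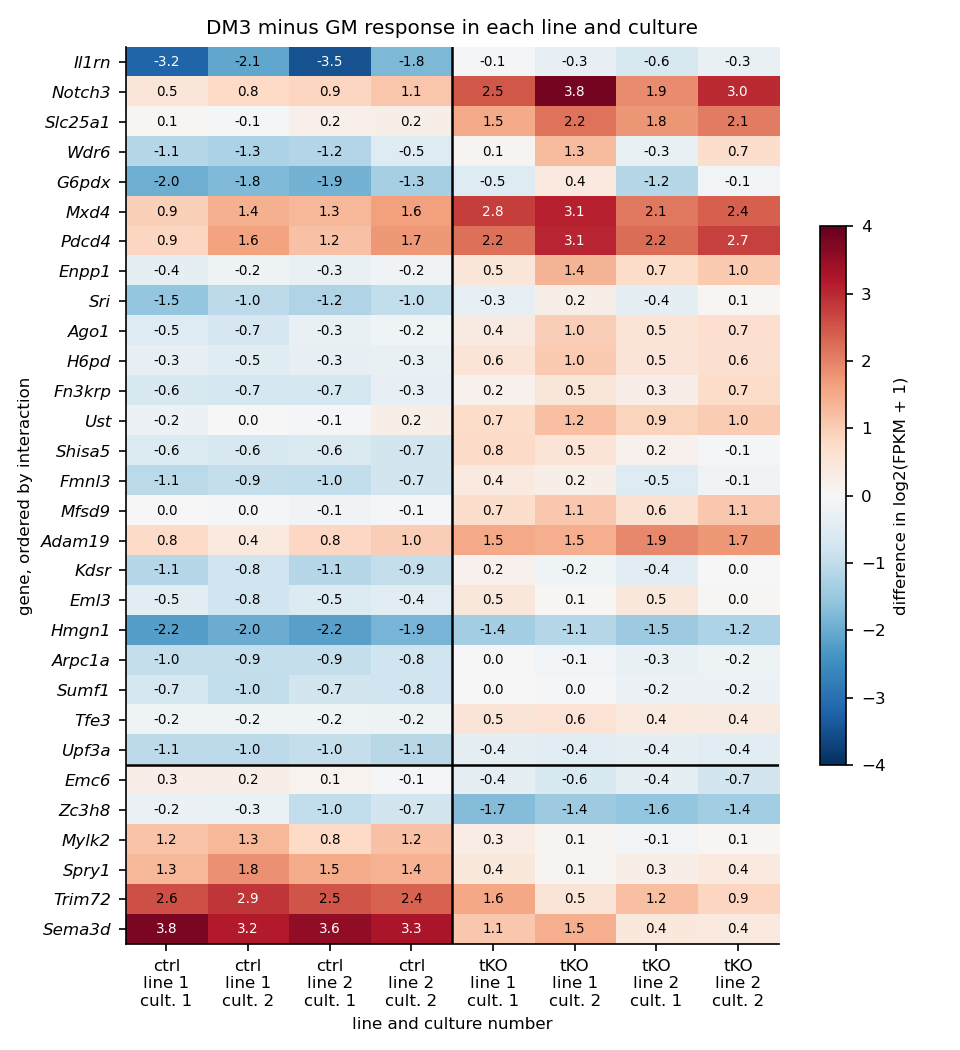
Response (DM3 minus GM, difference of log2(FPKM + 1)) of the 30 called genes in each line and culture pair, with red for a rise, blue for a fall and genes ordered by their interaction. The 4 control columns differ from the 4 tKO columns in every row. Within both tKO clones Notch3, Wdr6 and G6pdx have larger values in culture 2 (Notch3 at 3.83 and 2.97) than in culture 1 (2.48 and 1.90). The same holds for Slc25a1, H6pd, Fn3krp, Sri, Enpp1, Mfsd9, Ago1, Hmgn1, Ust, Mxd4, Pdcd4 and Zc3h8. Of these genes, Notch3, G6pdx, Sri, Enpp1, Hmgn1, Ust, Mxd4 and Pdcd4 also have larger values in culture 2 in both control lines.

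The count of called genes depended on single libraries. The sign of all 30 interactions was kept when each library, each line or each culture was left out. Nothing is read from this, because the genes were called on this contrast and their responses did not overlap. Within culture 1 alone 0 genes passed by limma (511 at an unadjusted p under 0.05), and within culture 2 alone 2 did, with 2 libraries per group. The count was 7, 7, 8 and 7 without each control GM library, and 9, 7 and 11 without control DM3 line 1 culture 1, line 1 culture 2 and line 2 culture 1. It was 179 without tKO DM3 clone 1 culture 1, 15 without clone 1 culture 2 and 6 without clone 2 culture 2 of that group. It was 13 without tKO GM clone 1 culture 1, 54 without clone 2 culture 1 and 16 without clone 2 culture 2. The other single-library counts were 31 without control DM3 line 2 culture 2, 36 without tKO DM3 clone 2 culture 1 and 21 without tKO GM clone 1 culture 2. Without control line 1 the count was 0 (314 at an unadjusted p under 0.05), and without control line 2 it was 1. It was 37 without tKO clone 1 and 101 without tKO clone 2. Slc25a1, H6pd, Il1rn, Fn3krp, Spry1 and Sema3d passed whichever library was left out, and the other 24 lost their call without at least 4 libraries. With line as a replicate block, 45 genes passed, 37 higher and 8 lower, and 27 of the 30 were among them. With a replicate block for each line and culture pair, 7 passed, and Slc25a1 and Sema3d were the only ones of the 30 among them. With line averages as the units, 2 against 2 in each stage, Slc25a1 alone passed (adjusted p = 0.024).

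Genes with a seed site for the deleted microRNAs were frequent among the higher responses. A 3′ UTR was matched for all 30 called genes and for 10806 of the genes tested. Of the 24 genes with a higher tKO response, 18 (75%) had at least 1 site, against 19.0% (2049) of the genes with a 3′ UTR. The 8-base site was in 5 of them (20.8% against 4.46%), namely H6pd, Sri, Upf3a, Ust and Kdsr. ACATTCC was the longest site in 7 (29.2% against 7.11%) and CATTCCA in 6 (25% against 7.39%). Il1rn, Fn3krp, Enpp1, Sumf1, Fmnl3 and Shisa5 had none. Of the 6 genes with a lower tKO response, Sema3d and Spry1 had a CATTCCA site and the others none. Sites were also denser, at 0.609 per kilobase of 3′ UTR in the 24 genes and 0.264 in the 6 genes with a lower response (2 sites in all), against 0.142 over all genes. The 24 genes and all genes had median 3′ UTR lengths of 1488 and 1191.5 bases. A site is a match of letters, and none was tested for binding.

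The count of sites among higher responses moved with the set of called genes. Among called genes with a 3′ UTR it was 15 of 19 with voom, 22 of 36 with line as a replicate block, 79 of 120 without tKO DM3 clone 1 culture 1 and 8 of 17 without the filter on low values. Without tKO clone 2 it was 26 of 71 (36.6%). Length of the 3′ UTR sets how often a site occurs, so genes were split into 3 groups of equal size by that length. Sites were in 5.03% of the genes with the shortest 3′ UTRs (up to 717 bases), where all 5 called higher genes had a site. They were in 16.2% of the middle group, where 7 called higher genes had a site and 4 had none, and in 35.7% of the longest group, where the numbers were 6 and 2.

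Over all genes with a 3′ UTR the interaction was graded by site. The median was 0.23 for genes with the 8-base site (482 genes), 0.15 with ACATTCC (768), 0.12 with CATTCCA (799) and 0.02 without a site (8757). The share of genes above 0 was 80.3%, 69.8%, 67.7% and 52.4% in the same order. In control cells genes with the 8-base site had a median response of -0.36, against -0.13 for genes without a site, and in tKO cells the medians were -0.11 and -0.11. Within the 3 length groups the 8-base median was 0.22, 0.23 and 0.22 from short to long, and the median without a site was -0.03, 0.02 and 0.06. The difference of the 2 medians was 0.17 in culture 1 libraries and 0.24 in culture 2 libraries.

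The gap between genes with the 8-base site and genes without a site was below 0 in all 4 control pairs and on both sides of 0 among the tKO pairs. It was -0.23, -0.26, -0.22 and -0.20 in control cells. In tKO cells it was -0.13, 0.03, 0.02 and 0.10, and the value below 0 was clone 1 culture 1. Genes were also split by 3′ UTR length, with 38 genes holding the 8-base site in the shortest group. In clone 1 culture 1 the medians with the 8-base site and without a site were 0.09 and -0.07 in the shortest group. They were -0.25 and -0.25 in the middle group and -0.42 and -0.40 in the longest. The same split put other tKO pairs below 0. In the shortest group clone 1 culture 2 had -0.18 with the site and -0.07 without. In the middle group clone 2 culture 1 had -0.25 and -0.18. In every length group all 4 control pairs had a lower median with the site than without. Sites for miR-133, a muscle microRNA with another seed whose genes lie beside those of the miR-1 and miR-206 family, were counted the same way. The 8-base miR-133 site is GGACCAAA, and the shorter ones are GGACCAA and GACCAAA. Of the 24 higher genes 12 had a miR-133 site (50%) against 15.1% of all genes, and the median interaction was 0.19 for genes with the 8-base miR-133 site and 0.02 for genes with none. Genes with a miR-133 site and no site for miR-1 and miR-206 had medians of 0.11, 0.11 and 0.13 in the 3 length groups, and genes with a site for miR-1 and miR-206 and no miR-133 site had 0.12, 0.14 and 0.15. Whether miR-133 itself differed between the genotypes was not analysed here.

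**Figure D5:**
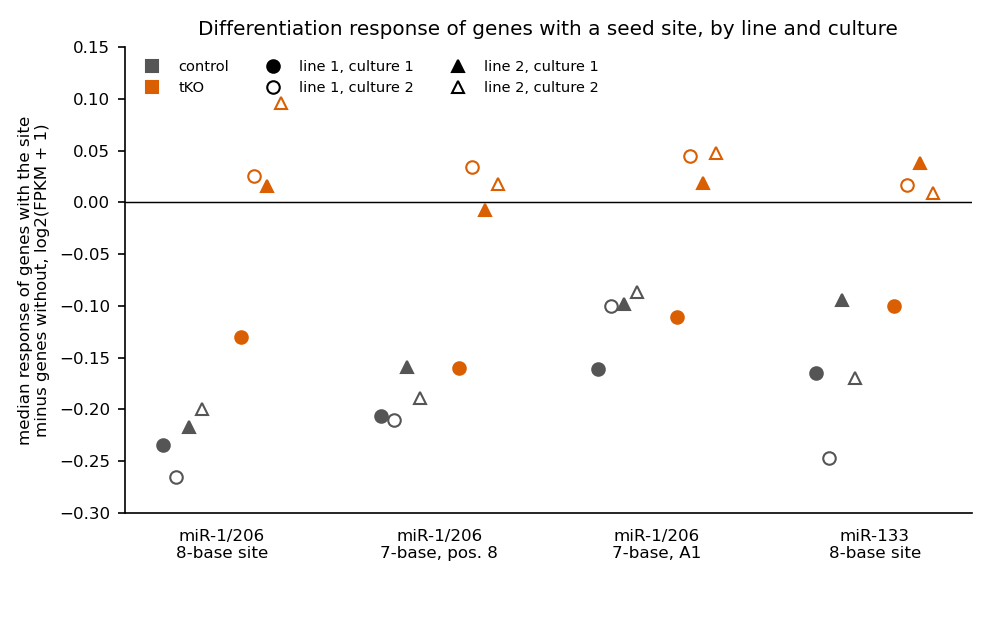
Median response (DM3 minus GM, log2(FPKM + 1)) of genes with each kind of site minus the median of genes without one, for each line and culture pair of control (grey) and tKO (orange) cells. For the 8-base site of miR-1 and miR-206 the control pairs lie between -0.26 and -0.20 and the tKO pairs between -0.13 and 0.10, with clone 1 culture 1 the lowest tKO point in every class.

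Lists of muscle and metabolic genes are described by counts and medians beside those of all genes, for which 54.6% of interactions were above 0, the median was 0.03 and 10.8% had an unadjusted p under 0.05. Of 43 reported or candidate targets of miR-1 and miR-206, 2 were called higher (Notch3 and G6pdx) and none lower, 35 were above 0 and the median was 0.36. Arf3, a small GTPase of the Golgi, came closest after them (interaction 0.65, adjusted p = 0.0634). The list's mean level in control DM3 was 4.84, 4.92, 4.86 and 5.06, and in tKO DM3 it was 5.01, 5.34, 5.11 and 5.35. The tKO DM3 libraries of culture 2 were the highest of these 8, and the median interaction was 0.27 within culture 1 and 0.48 within culture 2. The list was compiled from reports on this microRNA family and is no independent evidence of direction.

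In the Notch pathway 1 of 30 genes was called (Notch3), 6 had an unadjusted p under 0.05, all higher, and the median was 0.09. Rbpj, the DNA-binding partner of the Notch receptors, was at 12.3 ± 1.01 and 16.4 ± 1.11 FPKM in control GM and DM3 and 9.8 ± 0.885 and 20.6 ± 0.677 FPKM in tKO GM and DM3 (interaction 0.62, adjusted p = 0.0622). Ncstn, a subunit of the gamma-secretase that cleaves Notch, had an interaction of 0.51 (adjusted p = 0.119). Among 29 genes of semaphorin, plexin and netrin guidance, Sema3d was called lower, 22 were above 0 and the median was 0.39, so the called member stood against the direction of most of the list. Sema5a (0.54, adjusted p = 0.187) and Ntn1 (1.09, adjusted p = 0.281) did not pass. Of 23 interleukin-1 and chemokine genes Il1rn was called higher, and the median was 0.21. Il1r1, the signalling receptor for interleukin-1, was at 4.79 ± 0.861 and 1.73 ± 0.419 FPKM in controls and 4.68 ± 1.5 and 3.85 ± 1.06 FPKM in tKO cells (interaction 0.86, adjusted p = 0.243). Saa3, an acute-phase protein gene, had an interaction of 1.87 (adjusted p = 0.345).

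Most contractile genes rose in both genotypes and none was called in the main limma model or by voom. With culture number as a replicate block, limma called Tpm1 (adjusted p = 0.0345) and Ryr1 (adjusted p = 0.0429), both lower. Of 35 sarcomere and muscle structure genes 31 rose in control and 30 in tKO cells, and 9 had an unadjusted interaction p under 0.05, 4 higher and 5 lower. The median was -0.26, and it was 0.22 within culture 1 and -0.69 within culture 2, so its sign differed between cultures. Tpm3, with an 8-base site, had an interaction of 0.62 (adjusted p = 0.148), and Klhl41, a protein of sarcomere assembly, -0.77 (adjusted p = 0.253). For 18 genes of excitation-contraction coupling the median was -0.30, with -0.08 in culture 1 and -0.43 in culture 2. None of them was called in the main model, and 4 had an unadjusted p under 0.05, all lower. Ryr1, the calcium release channel, reached 21.5 ± 2.46 FPKM in control DM3 and 9.83 ± 3.62 FPKM in tKO DM3 (interaction -1.10, adjusted p = 0.0686). Atp2a1, the calcium pump of fast fibres, reached 54.2 ± 12.4 and 15.2 ± 10.1 FPKM (interaction -1.76, adjusted p = 0.114). Cacnb1, a subunit of the voltage sensor, reached 15.1 ± 1.25 and 7.31 ± 2.64 FPKM (interaction -0.94, adjusted p = 0.169).

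Of 27 genes of fusion, caveolae and membrane repair Trim72 was called lower, and the median was 0.10. Anxa6, an annexin of membrane repair, had an interaction of 0.45 (adjusted p = 0.294) and Cdh15, the muscle cadherin, -0.81 (adjusted p = 0.308). Among 13 myogenic regulators tested none was called by limma or voom, 1 had an unadjusted p under 0.05 and the median was 0.15, against -0.21 within culture 1. Mef2d had an interaction of -0.50 (adjusted p = 0.427), Id3, an inhibitor of the myogenic factors, -0.97 (adjusted p = 0.554), and Myog, the factor of terminal differentiation, 0.84 (adjusted p = 0.60). Myog rose in both genotypes, to 5.96 ± 3.19 FPKM in control DM3 and 13 ± 8.18 FPKM in tKO DM3.

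Nuclear and mitochondrial genes of oxidative phosphorylation stood on opposite sides of 0. Of 79 nuclear-encoded subunits none was called by limma or voom, 9 were above 0, 10 had an unadjusted p under 0.05, all lower, and the median was -0.22. It was -0.14 within culture 1 and -0.26 within culture 2, and 51 of these genes rose in control cells against 39 in tKO cells. Uqcrfs1 (-0.57, adjusted p = 0.253), Uqcrc2 (-0.33, adjusted p = 0.313) and Uqcr10 (-0.58, adjusted p = 0.324), all subunits of complex III, had the smallest p of the list. Of 13 mitochondrially encoded subunits 12 were above 0, none was called by either tool and none had an unadjusted p under 0.05, and the median was 0.62. Their mean level was 6.48, 6.68, 6.95 and 7.77 in control DM3 and 7.04, 8.38, 7.16 and 8.09 in tKO DM3, with both tKO values above 8 in culture 2. Within culture 1 the median was 0.23 and within culture 2 0.97. mt-Nd5 (0.91), mt-Cytb (0.91) and mt-Co3 (0.62) had adjusted p of 0.496, 0.543 and 0.568.

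Beside Slc25a1, 29 genes of cholesterol and fatty acid synthesis were examined. None was called by limma or voom, 27 were above 0, 3 had an unadjusted p under 0.05, all higher, and the median was 0.42. The median was -0.59 within culture 1 and 1.49 within culture 2, so the sign differed between cultures. The list's mean level was 5.93, 5.05, 5.97 and 5.32 in control DM3, higher in both culture 1 libraries, and 4.83, 6.30, 5.69 and 5.80 in tKO DM3, where both culture 2 libraries were higher. Sqle (1.35, adjusted p = 0.372) and Elovl6 (1.32, adjusted p = 0.423) had the smallest p. Slc25a1 had an interaction of 1.49 within culture 1 and 2.06 within culture 2. Of 36 genes of glycolysis, glycogen and the TCA cycle none was called by either tool, 10 had an unadjusted p under 0.05 and the median was 0.04, with the opposite sign in 8 of 35 alternatives. Pygm, the muscle glycogen phosphorylase, had an interaction of -1.06 (adjusted p = 0.108), Gys1, the muscle glycogen synthase, 0.94 (adjusted p = 0.147), and Pfkl 1.19 (adjusted p = 0.288).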

How the data were processed

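Poly(A) RNA of 16 libraries was sequenced on an Illumina HiSeq instrument, per the labels' protocols. The authors deposited a table of FPKM values with 1 column per library, unpooled. The submitters' processing notes name STAR, DESeq and mm10, with no versions. Gene positions are as deposited. FPKM times the deposited gene length gave whole fragments for 100% of values, from which depth and voom were computed. The margin allowed was 0.01 at low counts and grew with the count at high ones, where the check is weak. The floor of 3 fragments covers counting error only, and intervals are those of limma, from the spread between libraries.

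Genes were kept where FPKM averaged 0.5 or more over the libraries (11832 of 35275). A model of 4 group means was fitted to log2(FPKM + 1) by limma (version 3.58.1, R 4.3.3), with empirical Bayes (trend, robust) and Benjamini-Hochberg adjustment, threshold 0.05. This scale understates changes of low genes. The procedure was tested on simulated data. Whether counting used the strand is not given in the sources used here, so overlapping genes and genes with close copies are uncertain.

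Line numbers pair samples, since GM and DM3 come from the same line (r of deviations -0.07 in control and 0.54 in tKO lines). The main model had no block. Called genes are all named, with every library for the 12 of smallest p, 5 just outside, and up to 3 per list by smallest p. The members, lists and tests were chosen with earlier results of these data known.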

Additional observations from a re-analysis of the deposited data

Results flagged for a closer look

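The interaction itself is a difference between groups, in that 30 genes responded differently to differentiation in tKO and control cells by the interaction test. In 6 of 120 groups (30 genes in 4 groups of 4 libraries), 1 library stood apart from the other 3 by Dixon's criterion at 95%, and chance flags about 1 in 20. Spry1 was at 0.189 FPKM in control GM line 1 culture 2, against 0.279 to 0.289 in the other libraries of that group. Il1rn was at 0.403 FPKM in tKO DM3 clone 2 culture 2, against 0.113 to 0.16 FPKM. Fn3krp was at 5.62 FPKM in control DM3 line 2 culture 2, against 5.09 to 5.17 FPKM. Trim72 was at 7.12 FPKM in control DM3 line 1 culture 2, against 4.91 to 5.11 FPKM. Mfsd9 was at 1.16 FPKM in control GM line 2 culture 2, against 1.01 to 1.04 FPKM. Mylk2 was at 0.855 FPKM in tKO DM3 clone 1 culture 1, against 0.37 to 0.436 FPKM. Of these libraries, 5 are of culture 2 and 4 are controls.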

How the results depend on the processing

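The 30 interaction estimates kept their sign under the alternatives run, except that of Spry1 with voom (1.01, against -1.21). The genes were called on this contrast in the same libraries, so a kept sign is no support for its direction. Over 1043 combinations of gene and alternative, 508 kept the call, 534 kept the sign without passing and 1 turned. The count of 30 called genes (24 higher, 6 lower) became 13 (13 higher, 0 lower) with pseudocount 0.1, 51 (15 lower) with quantile normalization and 16 (12 higher) at a size of at least 1. Lower calls were 10 without a filter, 3 with a filter at 5 FPKM and 0 with voom, where 20 genes passed (1211 at an unadjusted p under 0.05). With line as a replicate block 45 genes passed (37 higher, 8 lower). With line and culture number as a replicate block 7 did (6 higher, 1 lower), 2 of them among the 30, and a replicate block of culture number alone gave 49 (13 lower), with all 30 among them. Whether culture numbers pair the stages is uncertain: the correlation of deviations was above 0 in all 8 pairs (0.077 to 0.323), under 0.1 in 2, and largest for the own number in 4. Line averages gave 1 (1 higher, 0 lower). Leaving out each library gave 6 to 179 genes (4 to 124 higher, 2 to 55 lower). Leaving out a line gave 0 without control line 1 and 1 (1 higher, 0 lower) without control line 2. It gave 37 (29 higher, 8 lower) without tKO clone 1 and 101 (73 higher, 28 lower) without tKO clone 2. Culture 1 alone gave 0 and culture 2 alone gave 2 (2 higher, 0 lower). The cause was not tested. Shifts of the median interaction between scalings stayed under 0.1 (0.11 with TPM, -0.01 with median-of-ratios and -0.01 with quantile normalization, against 0.03). Depth limits Spry1 and Sema3d in tKO GM, at 0 to 1 and 0 to 9 fragments.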

Other observations

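The other gene lists held no called gene in the main limma model or by voom. Of 47 cell cycle and DNA replication genes all changed with differentiation in both genotypes, 2 had an unadjusted interaction p under 0.05 (1 higher and 1 lower), and the median was -0.05. It was -0.39 within culture 1 and 0.22 within culture 2. The list's mean level in tKO DM3 was 2.90, 3.37, 3.79 and 3.67, with clone 1 culture 1 the lowest of all 16 libraries, against 3.54 to 3.69 in control DM3. Mybl2, a transcription factor of the cell cycle (-0.54, adjusted p = 0.412), Tyms, thymidylate synthase (0.47, adjusted p = 0.451), and Cdk1 (-0.49, adjusted p = 0.492) had the smallest p. Of 26 smooth muscle and non-muscle contractile genes 2 had an unadjusted p under 0.05, both higher, and the median was -0.16. Tpm4, a non-muscle tropomyosin with an 8-base site for miR-1 and miR-206, was at 432 ± 41.8 and 68.4 ± 14.2 FPKM in control GM and DM3 and 539.8 ± 131 and 188 ± 22.8 FPKM in tKO GM and DM3 (interaction 1.17, adjusted p = 0.0578). Myh10 (0.55, adjusted p = 0.463) and Mylk (1.01, adjusted p = 0.492) followed. Tpm4 passed by limma with culture number as a replicate block (adjusted p = 0.00262) and with line and culture number as a replicate block (adjusted p = 0.0404).

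Of 42 collagen and basement membrane genes 4 had an unadjusted p under 0.05, 2 higher and 2 lower, and the median was 0.05. Dcn, which encodes the proteoglycan decorin, was at 30.1 ± 4.24 FPKM in control DM3 and 9.5 ± 4.31 FPKM in tKO DM3 (interaction -1.29, adjusted p = 0.349), Col3a1 had 0.88 (adjusted p = 0.369) and Col11a1 -0.63 (adjusted p = 0.432). Of 13 genes of the IGF axis 1 had an unadjusted p under 0.05, lower. Igfbp2, an IGF-binding protein, was at 5.94 ± 0.844 and 13 ± 1.55 FPKM in control GM and DM3 and 0.0694 ± 0.0889 and 0.20 ± 0.234 FPKM in tKO GM and DM3 (interaction -0.87, adjusted p = 0.107), so the genotypes differed at both stages, and Igf2r (-0.32) and Igfbp4 (0.55) had adjusted p of 0.629 and 0.637. For 12 genes of the acetylcholine receptor and synapse, 19 of the interferon response and 28 of the integrated stress and unfolded protein response the medians were 0.08, -0.02 and -0.05, and 1, 1 and 2 genes had an unadjusted p under 0.05. The interferon median was 0.46 (18 of 19 genes above 0) without tKO GM clone 2 culture 2, -0.54 without tKO clone 1 and 0.42 without tKO clone 2, and it had the opposite sign in 13 of 35 alternatives. The medians of the synapse and stress lists had the opposite sign in 4 and 5 alternatives, and those of the collagen, smooth muscle, cell cycle and IGF lists in 8, 4, 4 and 2. The smallest p of the synapse, interferon and stress lists belonged to Lrp4 (0.71, adjusted p = 0.372), B2m (-0.60, adjusted p = 0.425) and Ddit4 (0.81, adjusted p = 0.356).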
